A study of Homo sapiens with 4 samples.

Results

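The transcripts described here end in the amber stop codon UAG followed by C, read as UAGC, and have a further in-frame termination codon within 200 nt. Members were taken from the deposited tables by 4 fields: an amber stop codon, C as the 4th letter of the 4 nt stop, at least 1 in-frame termination codon in the 3′UTR (3′TC), and a distance to the first of these of at most 200 nt. The rule used no read counts. It found 494 of the 9271 transcripts in the series, 1 per gene, out of 612 that end in UAGC. Of the other UAGC transcripts, 39 have no in-frame 3′TC and 79 have one farther away. Between 476 and 487 members are listed in each table, and 466 are in all 4.

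A stop codon is recognised by the release factor eRF1, which contacts the nucleotides after the codon as well as the codon itself. When a near-cognate tRNA pairs with the stop codon first, the ribosome reads through and keeps translating in frame until it meets the next stop codon. C after the stop codon is known as a leaky context, and UAG is commonly placed between UGA, the leakiest stop codon, and UAA, the tightest. Aminoglycosides such as G418 bind the decoding center of the ribosome and favour acceptance of near-cognate tRNAs.

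The libraries are ribosome profiling libraries, which sequence the mRNA fragments protected by ribosomes. They were made from HEK293T cells, an established line of human embryonic kidney origin that expresses the large T antigen and carries a neomycin resistance gene. One group was left untreated (0 µg/mL) and the other received 500 µg/mL G418, both for 24 h, with 2 replicates (A and B) per group that the study calls biological replicates. The labels give no other difference between the groups. The readout is the ribosome readthrough score (RRTS), which divides the footprint density from the normal termination codon (NTC) to the next stop codon in frame by that in the CDS, leaving out 6 nt after the NTC. An RRTS of 100% would mean that ribosomes were as dense after the stop codon as before it.

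The libraries hold 2440204 to 6082600 reads on mRNAs, and untreated replicate B is the shallowest. Of 7 genes listed as HEK293T markers, 6 are in all 4 tables and PAX2 is in the G418 tables only, and of 6 markers of blood, liver, fibroblast and endothelium 5 are in no table. The exception was COL1A1, a fibroblast collagen. The summed CDS density of the other-cell markers was 3.59 to 5.54 RPKM, all from COL1A1, against 649 to 768 RPKM for the HEK293T markers. Most of the latter sum came from 1 gene, VIM, at 533 to 658 RPKM. KRT8, another listed HEK293T marker, was at 1.45 to 2.13 RPKM, under COL1A1 in every library.

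The NTC contexts of 18 members named below for high or low RRTS are printed. These members were chosen by RRTS, and no comparison of sequence between the sets is given. Each runs 5′ to 3′ on the mRNA strand from 9 nt before the NTC to 9 nt after it, with the stop codon and its 4th letter in capitals, and comes from GENCODE version 44 on hg38. Records matched for 481 of 494 members. The first set holds the members with the highest RRTS in G418 replicate A among the 51 that had at least 50 expected reads in both G418 libraries, apart from HDGF, which had no matched record. Expected reads are the reads that the CDS density of a transcript would place in the counted region.
SCO1: aaaaagagcUAGCcaaagcag
IMP3: cuggaagccUAGCggaucucc
GRPEL1: aaggaagcuUAGCugcuguug
PRMT5: auuggccucUAGCccugcgug
DTD1: cgggagccgUAGCucaggagg
PPAT: uuagaauggUAGCugguaggg
DAZAP1: uaccgacgcUAGCccgcggcg
RNASEH2A: accagccucUAGCagcugccu
ADI1: cagaccgccUAGCagugcugc

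The second set holds the members with the lowest RRTS by the same choice.
C12orf45: gcuggaaacUAGCuuaucuuu
NPC2: gcucccuucUAGCaggccguc
CERS2: gcaacagagUAGCuccuugcc
CCT2: uuggauauuUAGCugaccuuc
PSRC1: agacuucagUAGCaaaccacu
MTAP: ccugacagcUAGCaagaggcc

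The third set holds members that were high in untreated cells and are not in the first.
UBQLN1: cagccaucaUAGCagcauuuc
MRPL33: gaaauccugUAGCguguaaua
TMED9: aagcuugugUAGCugucccag

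On hg38, the NTC of SCO1 is at chr17:10681119-10681121 on the minus strand, that of IMP3 at chr15:75639614-75639616 on the minus strand and that of UBQLN1 at chr9:83661787-83661789 on the minus strand. The NTC of CERS2 is at chr1:150964317-150964319 on the minus strand and that of NPC2 at chr14:74476428-74476430 on the minus strand. Each of these NTCs is an annotated stop codon that lies within 1 exon.

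UAGC transcripts were read through at a low level in untreated cells and at a much higher one in G418. Summed over the members that passed the study's minimum of mRNA reads in a condition, RRTS was 2.49% in untreated replicate A (330 reads of 13258.1 expected, exact 95% Poisson interval 2.23 to 2.77%) and 2.81% in untreated replicate B (152 of 5399.8, 2.39 to 3.30%). It was 24.6% in G418 replicate A (3264 of 13243.9, 23.8 to 25.5%) and 24.6% in G418 replicate B (2748 of 11155.3, 23.7 to 25.6%). These intervals cover counting error only. The means were 2.65% ± 0.23 (SD, n = 2 libraries, 339 transcripts) and 24.6% ± 0.0079 (SD, n = 2 libraries, 383 transcripts), a ratio of 9.29 and a difference of 21.99 percentage points. The groups did not overlap, and the exact two-sided permutation test over the 4 libraries gave p = 0.333, the smallest it can give with 2 libraries against 2.

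Most single members had no read in the counted region before treatment, and the part that depth played in this was not tested. Pooled over both untreated libraries, 189 of 339 members (55.8%) had no read before the first 3′TC and the median RRTS was 0%, with an upper quartile of 4.02%. In G418, 44 of 383 members (11.5%) had none, the median RRTS was 27.2% and the quartiles were 13.6 and 45.5%. The remaining 111 members passed the read minimum in neither condition, and all 339 that passed in untreated cells also passed in G418.

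Against the other amber contexts, UAGC was read through more in G418. The mean aggregate RRTS of UAGA was 17.1% ± 0.65, of UAGG 13.2% ± 0.48 and of UAGU 14.6% ± 0.74 (SD, n = 2 libraries each), all below the 24.6% of UAGC in either replicate. Across transcripts, a UAGC member had the higher pooled G418 RRTS in 61.8% of pairs with a UAGA transcript, 63.0% with UAGG and 61.05% with UAGU. In all shares of pairs given here and below, tied pairs are split equally between the sides. The two-sided Mann-Whitney U test with tie correction and Benjamini-Hochberg adjustment over 10 comparisons gave adjusted p = 3.1e-08, 2.5e-09 and 2.0e-05 over 390, 364 and 204 transcripts. Each G418 library gave the same order alone, with UAGC higher in 58.6 to 61.9% of pairs in replicate A and 59.1 to 61.2% in replicate B.

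Against the other stop codons followed by C, UAGC lay between them. In G418 the mean aggregate RRTS was 18.97% ± 0.72 for UAAC and 37.2% ± 1.54 for UGAC (SD, n = 2 libraries). UAGC was higher than UGAC in 36.9% of pairs (adjusted p = 1.4e-11, Mann-Whitney over 624 UGAC transcripts). The difference from UAAC did not pass the test, with UAGC higher in 53.9% of pairs (adjusted p = 0.080 over 358 transcripts). This call depends on the setting, because a quasi-Poisson fit across all 12 stop contexts gave a UAGC to UAAC ratio of 1.295 (adjusted p = 5.0e-05), and transcripts at the MANE Select stop, a choice made after seeing the data, gave 55.5% of pairs (adjusted p = 0.024).

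In untreated cells no comparison between UAGC and another amber context passed the test, although some passed under other settings. With tied pairs split equally, UAGC was higher in 49.7% of pairs with UAGA (adjusted p = 0.89), 54.0% with UAGG (adjusted p = 0.064), 54.7% with UAGU (adjusted p = 0.064) and 48.6% with UAAC (adjusted p = 0.57). UGAC alone passed, with UAGC higher in 36.4% of pairs (adjusted p = 9.5e-12). Between 38.6 and 65.4% of the transcripts of each of these contexts had no read, so many pairs were ties. UAGC was strictly higher in fewer pairs than each untreated share states. In untreated replicate B by itself the comparison with UAGU also passed (55.1% of pairs, adjusted p = 0.012), and in replicate A it did not (50.2%, adjusted p = 0.92). UAGC passed against UAGG in the quasi-Poisson fit (ratio 1.92, adjusted p = 0.0071) and without the length limit (54.4% of pairs, adjusted p = 0.034), and against UAGU without that limit (55.0%, adjusted p = 0.043). Aggregate RRTS in untreated cells was 2.65% ± 0.23 for UAGC against 1.81% ± 0.25 for UAGA, 1.33% ± 0.029 for UAGG, 1.497% ± 0.49 for UAGU, 2.50% ± 0.081 for UAAC and 6.13% ± 0.24 for UGAC (SD, n = 2 libraries). The ratio of G418 to untreated was 9.29 for UAGC, 9.43 for UAGA, 9.91 for UAGG and 9.76 for UAGU, and it was 7.58 for UAAC and 6.07 for UGAC. These ratios are given without a test.

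**Figure D1:**
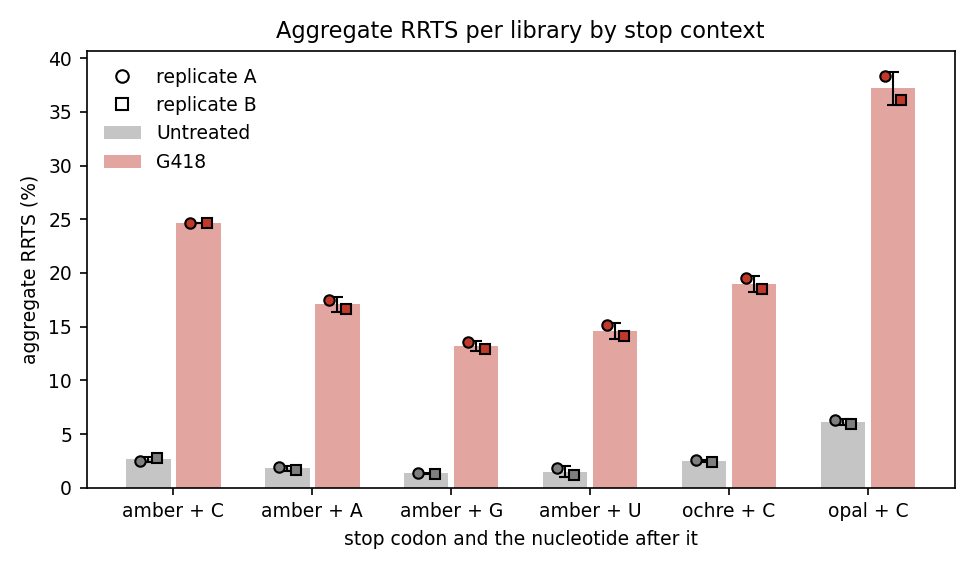
Aggregate RRTS (%) of transcripts grouped by stop codon and the next nucleotide. Bars are means of 2 libraries, error bars are SD, circles are replicate A and squares replicate B. Amber followed by C (UAGC) reached 24.6% in G418, above the other amber groups and below opal followed by C (37.2%).

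**Figure D2:**
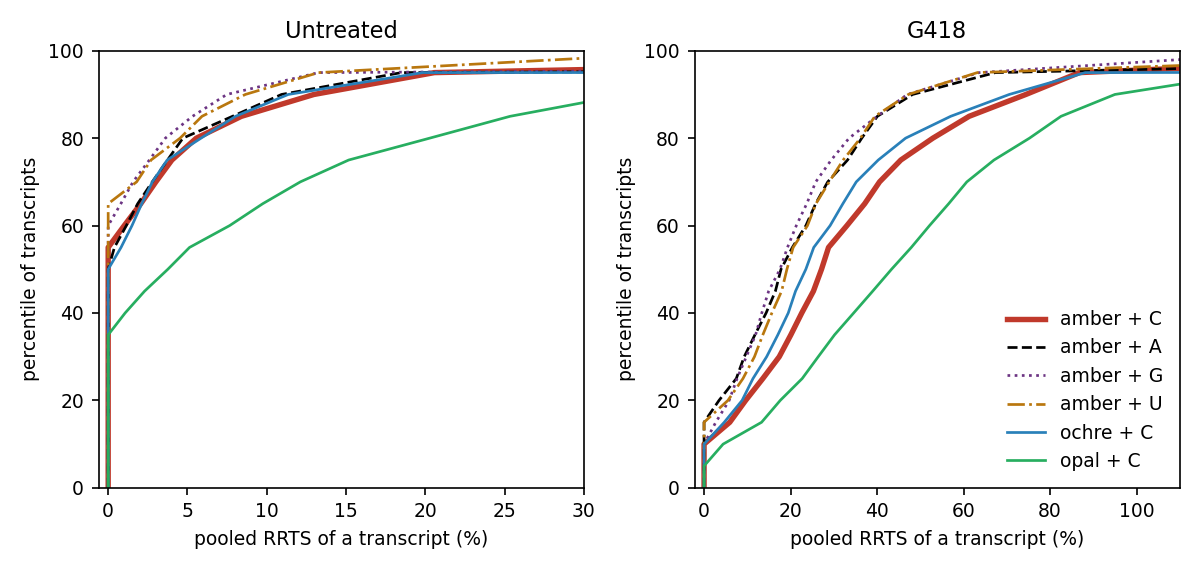
Percentiles of RRTS (%) pooled over the 2 libraries of a condition, for transcripts that passed the minimum of mRNA reads, untreated on the left and G418 on the right, in steps of 5 percentiles. The horizontal axes stop short of the highest transcripts. The amber plus C curve stays at 0 past the median in untreated cells and crosses the median at 27.2% in G418.

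Single UAGC transcripts differed widely in G418, and both replicates gave nearly the same order. Among the 51 members with at least 50 expected reads in both G418 libraries, RRTS ran from 0 to 70.0% in replicate A, with quartiles of 8.63, 21.5 and 33.1%. In replicate B it ran from 0 to 93.6%, with quartiles of 12.2, 22.5 and 30.4%. The SD between members was 14.4 percentage points in A and 16.7 in B, while counting error alone would give 4.29 and 4.88. The spread that both replicates shared, the square root of their covariance, was 14.8 percentage points, or 67.5% of the mean. Pearson's r between the replicates was 0.917 and Spearman's rho 0.902 over these 51 members, given as a description because the points come from the same libraries. Without SCO1 the shared spread was 12.3 percentage points, and among members with at least 100 expected reads, which leaves SCO1 out, it was 10.8.

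The same measure gave 11.5 percentage points for UAGA (69 transcripts), 11.4 for UAGG (67), 7.27 for UAGU (19), 15.3 for UAAC (63) and 23.1 for UGAC (67). Relative to the mean these were 71.1, 79.7, 57.8, 77.9 and 71.9%, and 67.5% for UAGC. In untreated cells only 24 members reached 50 expected reads in both libraries. Their mean RRTS was 2.02% in A and 2.40% in B, the shared spread was 1.86 percentage points, and r between replicates was 0.816. Across these 24 members, untreated and G418 RRTS ranked alike to a moderate degree (Spearman's rho 0.510).

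**Figure D3:**
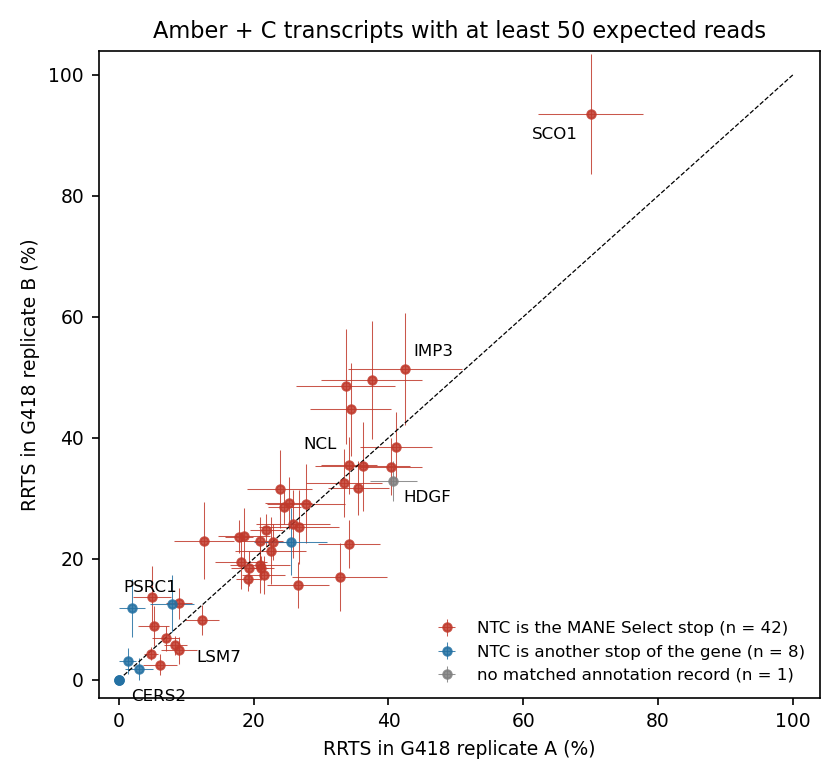
RRTS (%) in G418 replicate A against replicate B for the 51 members with at least 50 expected reads in both. Bars are the square root of the reads divided by expected reads, a counting error, and the dashed line is equality. SCO1 lies far above the rest in both replicates, and 6 members whose NTC is not the MANE Select stop lie at the bottom of replicate A.

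SCO1, a mitochondrial copper chaperone for cytochrome c oxidase, had the highest RRTS of the 51 members. In untreated cells it had 7 reads of 123.7 expected in A (5.66%) and 3 of 54.3 in B (5.53%). In G418 it had 80 of 114.3 in A (70.0%) and 89 of 95.1 in B (93.6%). Replicate B, which the choice did not use, was thus also the highest of the 51. The pooled ratio of G418 to untreated was 14.4 (95% counting interval 7.62 to 30.5), and 57 codons separate its NTC from the first 3′TC.

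The next 9 members lay between 34.2 and 42.4% in replicate A and between 22.5 and 51.4% in replicate B. IMP3, a protein of the U3 small nucleolar ribonucleoprotein that processes ribosomal RNA, had no read in either untreated library (64.9 and 32.5 expected) and 25 and 31 reads in G418, an RRTS of 42.4 and 51.4%. GRPEL1, the nucleotide exchange factor of the mitochondrial HSP70, was at 3.84 and 4.52% in untreated cells and 41.1 and 38.4% in G418. HDGF, a heparin-binding growth factor, was at 7.65 and 9.87% and then 40.7 and 32.8%. All 3 had G418 values above both untreated values, as did 89.9% of the 1625 transcripts of any context with at least 20 expected reads in each library.

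PRMT5, which methylates arginine symmetrically, was at 1.75 and 0% in untreated cells and 40.4 and 35.2% in G418. DTD1, which removes D-amino acids from tRNA, was at 1.98 and 8.28%, then 37.5 and 49.5%. PPAT, which catalyses the committed step of purine synthesis, was at 2.56 and 3.68%, then 36.2 and 35.3%. In these 3 genes too the groups did not overlap, as in 89.9% of the 1625 transcripts of any context. The untreated values of these 3 rest on 0 to 4 reads each.

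DAZAP1, an RNA-binding protein, was at 1.34 and 0% in untreated cells and 35.5 and 31.7% in G418. RNASEH2A, the catalytic subunit of ribonuclease H2, was at 5.18 and 2.62%, then 34.4 and 44.7%. ADI1, an enzyme of the methionine salvage pathway, was at 0 and 2.56%, then 34.2 and 22.5%. These 10 were chosen for their level in G418 replicate A, so only replicate B and the untreated values are free of the choice.

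**Figure D4:**
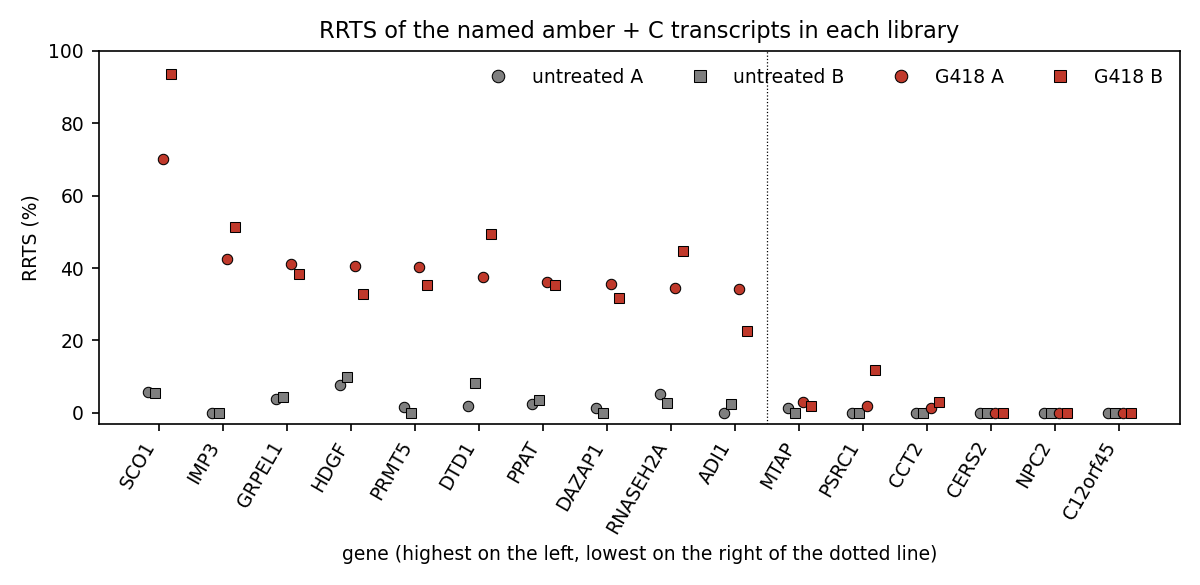
RRTS (%) of the 10 highest and 6 lowest members in each of the 4 libraries. Grey marks are untreated and red marks G418, circles are replicate A and squares replicate B. SCO1 reached 70.0 and 93.6%, and CERS2, NPC2 and C12orf45 were at 0 in all 4 libraries.

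At the other end, 3 members had no read before the first 3′TC in any library. CERS2, a ceramide synthase for very long acyl chains, had 135.0 and 109.4 expected reads in G418, so that 0 reads allow a pooled RRTS of up to 1.51% (upper limit of the exact 95% Poisson interval). NPC2, a cholesterol carrier of the lysosome, had 60.8 and 52.0 expected reads (up to 3.27%), and C12orf45 had 52.7 and 55.1 (up to 3.42%). These 3 had between 265 and 953 CDS reads in each G418 library and no read in the counted region.

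CCT2, a subunit of the TRiC chaperonin, had 1 of 76.9 and 2 of 64.8 expected reads in G418 (1.301 and 3.09%) and none in untreated cells. MTAP, an enzyme of methionine salvage, had 2 of 67.5 and 1 of 56.0 (2.96 and 1.79%) against 1.28 and 0% in untreated cells. PSRC1, a spindle protein, had 1 of 51.2 and 6 of 50.8 (1.95 and 11.8%) and none in untreated cells, so its place among the lowest in A was not kept in B.

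None of these 6 lowest members ends at the stop codon of the MANE Select transcript, the reference transcript chosen for each gene by NCBI and EMBL-EBI. Their NTCs are the stop codons of other annotated transcripts of the gene, in the single transcript that each table uses. The comparison was made after the values were seen, so no test is given. Among all members, 433 end at the MANE Select stop, 47 at another stop and 1 belongs to a gene without a MANE Select transcript. Aggregate RRTS in G418 was 25.5 and 25.6% for the 341 members at the MANE Select stop that passed the read minimum, and 6.68 and 8.38% for the 33 at another stop. In untreated cells it was 2.43 and 2.83% for the former and 1.69 and 0.272% for the latter.

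Transcripts of all contexts within the same limits showed the same order, with 21.004 and 20.1% for 5544 at the MANE Select stop and 4.39 and 3.81% for 442 at another stop in G418. Which transcript the cells used was not measured, and its part in the low values was not tested. MRPL33, a protein of the large mitochondrial ribosomal subunit that also ends at another stop, had 22 of 86.2 and 17 of 74.5 expected reads in G418 (25.5 and 22.8%), near the median of the 51 members.

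Members at the MANE Select stop also spanned a wide range. LSM7, a subunit of the LSm rings that bind U6 snRNA and decaying mRNAs, had 20 of 422.1 and 16 of 370.6 expected reads in G418 (4.74 and 4.32%) and none of 404.5 and 200.2 in untreated cells. Its interval over both G418 libraries was 3.18 to 6.29%, far under the 28.9 to 41.4% of NCL, and both intervals cover counting error only. NCL, a nucleolar protein and the most translated member, was at 34.1 and 35.5%. Its counted region overlaps annotated CDS, where other footprints cannot be told from readthrough. SNRPA, a protein of the U1 snRNP, had 24 of 286.3 and 14 of 246.4 expected reads (8.38 and 5.68%). The spread within UAGC transcripts at the MANE Select stop was 13.9 percentage points, close to the 14.8 over all of them.

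In untreated cells, UBQLN1 had the highest RRTS among members with at least 50 expected reads and 3 reads in replicate A. UBQLN1, which shuttles ubiquitylated proteins to the proteasome, had 10 of 54.8 expected reads in A (18.2%) and 6 of 19.5 in B (30.7%). In G418 it had 19 of 56.3 (33.7%) and 25 of 48.7 (51.4%), a pooled ratio of 1.95 (95% counting interval 1.08 to 3.70). Its log2 fold change in the readthrough test, edgeR's quasi-likelihood fit of reads before the first 3′TC with CDS reads as offset, was 0.95 (SE 0.44, adjusted p = 0.041, edgeR), and with untreated replicate A left out it was 0.45 (adjusted p = 0.48). Without G418 replicate B it was 0.62 (adjusted p = 0.32). The value was thus high in both untreated libraries, and the call for a rise rested on single libraries.

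HDGF followed UBQLN1, with 19 of 248.5 and 10 of 101.3 expected reads in untreated cells (7.65 and 9.87%). MRPL33 came next at 6.90% in A, but had no read of 38.8 expected in B. SCO1 (5.66 and 5.53%), RNASEH2A (5.18 and 2.62%) and TMED9 (4.32 and 2.37%), a cargo receptor between the ER and the Golgi, completed the 6. TMED9 had 80 of 366.0 and 81 of 328.1 expected reads in G418 (21.9 and 24.7%). Of these 6, all but MRPL33 also had reads in untreated replicate B.

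The readthrough test could follow only members with at least 10 reads before the first 3′TC over the 4 libraries, and these reads came mostly from G418. It tested 147 of 494 members and called 125 of them higher in G418 and 0 lower at an adjusted p of 0.05 (edgeR), beside 82.6% of all 2827 transcripts tested called higher and 0.0707% called lower. No member was lower at an unadjusted p under 0.05 or by DESeq2. The count was 76 without untreated replicate A, 70 without G418 replicate A and 81 without G418 replicate B. Because passing the read minimum already favours a rise, these counts are a description. DESeq2 called 76 members higher, all among the 125.

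A comparison with a minimum on expected reads does not depend on reads after the stop codon. Of 57 members with at least 20 expected reads in each of the 4 libraries, 54 (94.7%) had both G418 RRTS values above both untreated values, beside 89.9% of 1625 transcripts of any context. The other 3 were CERS2, NPC2 and C12orf45, at 0 throughout. The share among members was near that of all transcripts.

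The 3 largest fitted rises belonged to members with no untreated read, for which the fitted value is no measure of size and only a lower bound can be given. Taking 3 reads over both untreated libraries as the floor, RRTS of IMP3 was at least 15.2-fold higher in G418, that of MICOS13, a subunit of the complex that shapes mitochondrial cristae, at least 9.76-fold and that of LSM7 at least 9.15-fold. MICOS13 had 20 of 74.8 and 17 of 67.2 expected reads in G418 (26.7 and 25.3%) and none of 73.0 and 39.4 in untreated cells. The adjusted p-values of IMP3, MICOS13 and LSM7 were 1.9e-12, 5.6e-08 and 1.4e-07 (edgeR). They are a description only, since these members reached the minimum of 10 reads through G418 alone and were picked as the largest rises.

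DDB1, a scaffold of the CUL4 ubiquitin ligase, had 1 read of 294.7 and none of 117.1 in untreated cells, and 46 of 214.0 and 30 of 173.7 in G418 (21.5 and 17.3%), a ratio of 80.7 with a counting interval of 14.1 to 3230. PRKCSH, a subunit of glucosidase II in the ER, was at 2.24 and 4.16% and then at 24.6 and 28.6%. FKBP4, an HSP90 co-chaperone, stood lower in G418, at 8.90 and 12.6%, with 0.414 and 0% in untreated cells.

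RPN1, a subunit of the oligosaccharyltransferase, was at 18.6 and 23.8% in G418, SMC1A of the cohesin ring at 20.96 and 19.03%, and POLR2B, the second largest subunit of RNA polymerase II, at 29.8 and 27.1% on 7 and 5 reads. The readthrough call of POLR2B (adjusted p = 0.029, edgeR) was lost when either untreated replicate was left out (adjusted p = 0.056 and 0.060). IARS, which charges tRNA with isoleucine, had 2 of 47.5 and 6 of 40.7 expected reads (4.21 and 14.7%). With CCT2 and NCL these are among the 10 members with the most CDS reads, and their G418 RRTS in replicate A ran from 1.301 to 34.1%.

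What UAGC transcripts share beyond the rule was examined first at the neighbouring nucleotides. Members carrying a nucleotide at each of 8 positions (-3 to -1 before the NTC and +5 to +9, counting the first letter of the NTC as +1) were compared with the other members, over 374 members with a matched record that passed in G418. With the C at +4 fixed, 3 of 32 comparisons passed the two-sided Mann-Whitney test after Benjamini-Hochberg adjustment, all of them before the stop codon, and 8 of 32 had an unadjusted p under 0.05. None of the 20 comparisons at +5 to +9 passed.

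Members whose last sense codon begins with G were read through less. The 79 members with G at -3 had a median pooled RRTS of 17.995% in G418 against 28.4% for the other 295, and were higher in 35.5% of pairs (adjusted p = 0.0023, Mann-Whitney). Their aggregate RRTS was 19.4% in replicate A and 19.02% in B, against 26.4 and 26.8% for the others, and 1.74 and 1.99% against 2.67 and 2.97% in untreated cells. All 4 libraries thus gave the lower value to G at -3. The call was lost without G418 replicate B (39.1% of pairs, adjusted p = 0.17) and with a minimum of 500 mRNA reads (38.4%, adjusted p = 0.16).

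G at -1, the nucleotide just before the stop codon, went with lower RRTS in G418 (134 members, 40.1% of pairs, adjusted p = 0.023, aggregate 20.5 and 20.2% against 26.5 and 26.9%). A at -1 went with higher RRTS (71 members, 61.05% of pairs, adjusted p = 0.040, aggregate 27.6 and 29.7% against 23.5 and 23.3%). Both comparisons at -1 lost their calls when either G418 replicate was left out (adjusted p = 0.185 and 0.38 for G, 0.23 and 0.39 for A) and with a minimum of 500 mRNA reads (0.32 for G, 0.21 for A), while their directions held. These comparisons are not independent, since a member with one nucleotide lacks the other. In untreated cells G at -1 showed no lower value, at 2.55 and 2.69% against 2.27 and 2.63%.

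The motif CAAUUA from +4, known from stop codon readthrough of plant viruses, was in 0 members on the mRNA strand, and CAAUU was in 1. The motif CUAG from +4, known from mammalian readthrough after UGA, was in 3 members and in 14 transcripts of all contexts. These counts say only which letters follow the stop codons.

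Members lay close to the other transcripts within the limits in their dimensions. The distance from NTC to the end of the first 3′TC had a median of 66 nt (quartiles 39 and 105, range 18 to 198), against 60 nt for the 7395 other transcripts. The first in-frame 3′TC was UGA in 237 members, UAA in 131 and UAG in 113 of those with a record. Aggregate RRTS in G418 was 24.96 and 25.7% where it was UGA, 22.8 and 23.3% where it was UAA and 24.3 and 22.7% where it was UAG. By distance, it was 29.8 and 28.8% up to 60 nt, 21.3 and 22.04% from 61 to 120 nt and 24.98 and 24.8% beyond 120 nt, so the middle group was lowest in both libraries.

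Over the 51 members with most expected reads, Spearman's rho between pooled G418 RRTS and the distance to the first 3′TC was 0.065, with CDS length 0.12, with CDS reads per nt -0.050 and with 3′UTR length 0.36. For GC content from +4 to +15 it was -0.077 over 50 members. These are descriptions across transcripts of the same libraries. None but that with 3′UTR length exceeded 0.12 in size.

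At the length limit, the members just inside were PRKCSH and SASH1 at 198 nt and FGD6 at 195 nt. PRKCSH was at 24.6 and 28.6% in G418, SASH1 at 61.9 and 53.0% on 5 and 4 reads, and FGD6 at 0 and 34.2% on 0 and 1 read. Just outside were MRPL10 and PRAME at 201 nt and MARCKSL1 at 204 nt, with 31.9 and 23.02%, 24.8 and 26.1%, and 24.8 and 23.4%. The values on both sides of the limit lay in the same range where reads were many.

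By function, members fell into most of the gene lists examined, with few in each. No cytosolic ribosomal protein (0 of 65 in the series), proteasome subunit (0 of 34), translation factor (0 of 59) or gene known for natural readthrough (0 of 9) was a member. There were 3 mitochondrial ribosomal proteins of 54, 1 respiratory chain subunit of 76, 3 chaperones of 50, 3 splicing and RNA processing genes of 89 and 1 histone of 34. A further 5 of 150 ubiquitin system genes, 12 of 166 solute carriers, 15 of 311 zinc finger genes, 4 of 90 genes with Rab, Arf or Arl symbols and 6 of 172 cell cycle and replication genes were members. The last list goes by symbol and also takes in RNA polymerase subunits, here POLR1A and POLR2B. Of termination and recycling factors, 1 of 11 was a member.

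Counts of calls in the lists are read against the 82.6% of all tested transcripts that were called higher, and they are descriptions because members reach the test mostly through their G418 reads. Of the mitochondrial ribosomal proteins, 3 of 3 tested were called higher in G418 (edgeR). Their aggregate RRTS was 3.07 and 0% in untreated cells and 18.7 and 16.6% in G418. Within the list, MRPL44 was at 54.2 and 55.1% on 10 and 9 reads, MRPL54 at 12.3 and 9.85% on 24 and 16 reads and MRPL33 at 25.5 and 22.8%. NDUFS7, the respiratory chain member, had 6 of 97.8 and 2 of 81.3 expected reads in G418 (6.13 and 2.46%) and was not tested for lack of reads.

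The splicing and RNA processing genes were at 0.138 and 0.612% in untreated cells and 7.06 and 5.57% in G418. Of these, 3 of 3 were called higher, beside 82.6% of all transcripts tested. Their level was set by LSM7 and SNRPA, while DDX27, an RNA helicase of ribosome biogenesis, had 7 of 13.8 and 5 of 11.9 expected reads (50.9 and 42.1%). Among the chaperones, 0 of 1 tested passed, and DNAJB1, an HSP40 co-chaperone, had 10 of 14.9 and 4 of 12.3 expected reads in G418 (67.1 and 32.6%) against 3 of 14.5 and 0 of 6.3 in untreated cells (adjusted p = 0.061, edgeR).

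Solute carriers were at 5.29 and 4.80% in untreated cells and 30.8 and 32.2% in G418. Of these, 3 of 4 tested were called higher, beside 82.6% of all transcripts tested. SLC6A15, a transporter of neutral amino acids, was the one not called, with 10.2 and 20.6% in untreated cells and 14.6 and 18.9% in G418 on 3 to 5 reads each (adjusted p = 0.69). SLC7A5, the light chain of a large neutral amino acid transporter, had 7 of 28.7 and 10 of 24.7 expected reads (24.4 and 40.5%) in G418 and was called by edgeR but not by DESeq2 (adjusted p = 0.096). The cell cycle and replication list, which goes by symbol and includes the RNA polymerase subunits POLR1A and POLR2B, was at 3.44 and 3.18%, then 23.8 and 23.9%. Of its members, 2 of 3 tested were called, POLR2B and CDK1, beside the same 82.6%. CDK1, the kinase that drives mitotic entry, was at 2.98 and 3.11% and then 22.9 and 22.8%.

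The remaining lists rest on few reads. Ubiquitin system genes were at 21.8 and 35.6% in G418 on 9 and 13 reads, with UBE2O the 1 member tested and called (adjusted p = 0.0043, edgeR), a call that DESeq2 did not make (adjusted p = 0.073). Zinc finger genes were at 27.6 and 34.7% on 7 and 8 reads with no member tested, and genes with Rab, Arf or Arl symbols at 9.62 and 14.5% on 8 and 9 reads, with RAB2A, a GTPase of early secretory traffic, the 1 tested and called by edgeR (adjusted p = 0.0021, against 0.0503 by DESeq2). The histone H2AFY2, a macroH2A variant, had 13 of 29.8 and 5 of 23.4 expected reads and was called higher. N6AMT1, the catalytic subunit of the methyltransferase that modifies eRF1, had 8 of 7.0 and 1 of 4.5 expected reads and was not tested. Without untreated replicate A, the readthrough calls of DDX27, H2AFY2, SLC7A5 and RAB2A were lost (adjusted p = 0.056, 0.053, 0.052 and 0.073, edgeR).

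CDS counts of most members did not pass the test between G418 and untreated cells. edgeR tested 464 of 494 members and called 29 higher (6.25%) and 10 lower (2.16%) in G418, beside 5.31% higher and 3.21% lower over all 8494 transcripts tested. The shares among members were near those of all transcripts. Leaving out G418 replicate A or B left 4 members higher and 0 lower, without untreated replicate A there were 33 higher and 38 lower, and without untreated replicate B 65 and 37. Scaling by library totals, which moved the median of all transcripts to 0.11 on the log2 scale, gave 49 higher and 3 lower, and DESeq2 called 5 and 3.

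Among the members that passed, the largest rises were of lowly translated transcripts. CASTOR3, of the family of the arginine sensor CASTOR1, whose near-identical copies can share reads, had 13 and 6 counts in untreated cells and 38 and 21 in G418 (log2 fold change 1.24, SE 0.37, adjusted p = 0.032, edgeR). BCL7B, a subunit of SWI/SNF complexes, had 39 and 14, then 89 and 71 (1.22, SE 0.23, adjusted p = 0.00085), and ABHD8 had 14 and 7, then 29 and 33 (1.18, SE 0.35, adjusted p = 0.033). In all 3, counts were higher in both G418 libraries than in either untreated library. The counts are not scaled for depth, and untreated replicate A held the most CDS reads (5775720). The calls of CASTOR3 and ABHD8 were lost without untreated replicate A or either G418 replicate, and that of BCL7B was kept.

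The largest falls were smaller in log2 fold change. Their counts are not scaled either, and untreated replicate B held 2302184 CDS reads against 4455448 in G418 replicate B. TIMM10B, a small chaperone of the mitochondrial intermembrane space, had 220 and 111 counts in untreated cells and 153 and 140 in G418 (log2 fold change -0.58, SE 0.15, adjusted p = 0.015, edgeR). DDB1 had 6405 and 2545, then 4650 and 3773 (-0.46, SE 0.08, adjusted p = 0.00024), and MCL1, an anti-apoptotic BCL2 family protein with a short half-life, had 1288 and 510, then 932 and 816 (-0.41, SE 0.10, adjusted p = 0.0051). In the readthrough test all 3 were called higher (adjusted p = 8.3e-05, 1.5e-18 and 0.00052, edgeR), that of MCL1 not without untreated replicate A (adjusted p = 0.051). The CDS calls of all 3 were lost when either G418 replicate was left out.

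The counted region of 12 members overlaps CDS of another transcript of the same gene and that of 4 members overlaps CDS of another gene, among them NCL, MCL1, CERS2, ABHD8 and FGD6. Footprints of ribosomes on these frames cannot be told from readthrough there. Aggregate RRTS of the members at the MANE Select stop without such overlap was 2.41 and 2.78% in untreated cells and 25.1 and 25.3% in G418.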

How the data were processed

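Ribosome profiling of 4 HEK293T libraries was analysed, 2 untreated and 2 treated with G418. The authors removed duplicate reads by molecular identifier, discarded noncoding RNA, aligned the rest to hg38 with STAR, keeping 1 alignment per multimapping read (the submitters' processing notes also name CASAVA 1.8), and deposited whole-number counts per region of 1 transcript per gene. The authors scaled these to RPM and to RPKM densities, from which the deposited ratio values (RRTS) were made, and the deposited 5′UTR density, treated as a score, was not used. CDS lengths leave out 18 nt after the start and 15 nt before the stop.

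Whole reads were recovered from RPM (100% of values whole within 0.01), and the deposited counts were these reads or 1 less. Readthrough used the recovered reads, CDS tests the deposited counts. RRTS was summed over transcripts with at least 128 mRNA reads per condition. Contexts and flanking nucleotides were compared by Mann-Whitney tests over transcripts, which are not replicates of a condition, and single transcripts by edgeR fits over all transcripts, with CDS reads plus 0.5 as offset for readthrough and TMM for CDS counts. P-values of these fits measure the spread between 2 libraries per group. The SE printed with an edgeR log2 fold change is its size divided by the square root of the F statistic. Alternatives were DESeq2, a replicate block, other minima, a quasi-Poisson fit and left-out replicates. Named are the 10 highest and 6 lowest members in G418 replicate A, the 6 highest in untreated replicate A, the 3 largest rises and falls, the 10 most translated, 3 on either side of the length limit and up to 4 most translated of each list. Of the 10 most translated, 1 is not reported here. The members and lists were chosen with earlier results of these data known. Tests were checked on simulated data. Sequences are from GENCODE 44. Software: matplotlib 3.10.9, scipy 1.17.1, DESeq2 1.42.0, edgeR 4.0.16 (R 4.3.3), pandas 2.3.3 and numpy 2.4.6 under Python 3.11.15.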

Additional observations from a re-analysis of the deposited data

Results flagged for a closer look

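Reads beyond the first in-frame 3′TC, which no comparison above used, were denser in G418 than in untreated cells. Over the members that passed in each condition, the density from there to the end of the 3′UTR was 0.243 and 0.216% of the CDS density in untreated replicates A and B (616 and 214 reads), and 0.868 and 0.905% in G418 (2227 and 1921 reads). The exact 95% Poisson intervals were 0.224 to 0.263% and 0.188 to 0.247% in untreated cells and 0.832 to 0.905% and 0.865 to 0.947% in G418. The result was flagged because both G418 libraries exceeded both untreated libraries. The other amber contexts and the other stop codons followed by C showed the same order, so it was not particular to the members. Opal followed by C was at 0.414 and 0.404% in untreated cells and at 1.66 and 1.57% in G418. Amber followed by adenine was at 1.08 and 1.18%, then 1.44 and 1.36%. The densities of the members were 9.74 and 7.67% of their RRTS in untreated cells and 3.52 and 3.67% in G418. What produced these reads was not tested.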

How the results depend on the processing

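Of the aggregate values, RRTS in untreated cells was 2.39% with a minimum of 500 mRNA reads and 0% as the median over transcripts, and 2.51 to 2.61% with 1 library left out. In G418 it was 23.9% with that minimum, 24.8% with none, 22.8% without the length limit, 27.2% as the median, 24.4% for transcripts that pass in both conditions, 25.6% at the MANE Select stop and 25.2% there without CDS overlap, and 24.3 to 24.5% with 1 library left out.

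Against UAGA in untreated cells the direction turned without the length limit (50.8% of pairs) and in the quasi-Poisson fit (ratio 1.37), as it did against UAAC in that fit (1.02) and against UAGU with 500 mRNA reads (48.3%). Against UAGG, 54.4% without the length limit and a ratio of 1.92 in the quasi-Poisson fit passed, as did 55.0% against UAGU without the limit. Against UAAC in G418, the quasi-Poisson ratio of 1.295 and 55.5% at the MANE Select stop passed. Flanking comparisons that passed numbered 1 with 500 mRNA reads (none of the 3 reported above), 1 at the MANE Select stop (G at -3) and 0 to 2 with 1 G418 library left out. The G418 spread was 10.8 percentage points with 100 expected reads, 12.3 without SCO1 and 14.3 to 15.9 from single libraries.

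Over all transcripts, 2338 were called in readthrough by edgeR and 1409 by DESeq2, and in CDS counts 724 by edgeR, 253 by DESeq2 and 1070 with the replicate block. Members called higher in readthrough numbered 76 by DESeq2, 76 with 20 reads and 70 to 122 with 1 library left out, and 93 with the replicate block. In CDS counts, 5 were higher and 3 lower by DESeq2, 49 and 3 by library totals, 35 and 17 with the replicate block, and 4 to 65 and 0 to 38 with 1 library left out. The letters share only a name by the labels: the correlation of deviations of same-lettered libraries was 0.14, which with 2 libraries per group is 1 value for both letters. With the replicate block, the readthrough calls of UBQLN1 (adjusted p = 0.115), POLR2B (0.113), UBE2O (0.053) and SLC7A5 (0.054) were lost, and no other readthrough call of a named member and no CDS call of the 6 members named for their CDS counts changed. Of 374 values of single genes and nucleotides under alternatives, 42 lost the threshold and 1 changed direction, the readthrough of SLC6A15 without untreated replicate A (log2 fold change -0.31, adjusted p = 0.77, and up to 0.67 with another library left out). In each case the cause was not tested. Alternatives on the MANE Select stop, CDS overlap and SCO1 were chosen after seeing the data. With 189 of 339 members at 0 reads, depth limits what untreated values of single members can show.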

Other observations

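Reads in the 5′UTR of the members were 4.01 per 100 CDS reads in the first untreated library (A) and 4.88 in the other. With G418 they were 4.44 in A and 4.70 in B, so the groups overlapped.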
